A study of Homo sapiens with 12 samples.

Results

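The ETS transcription factors examined here are 10 genes, ETS1, ETS2, FLI1, ELK1, ELK3, ELK4, ETV4, ETV5, ELF1 and GABPA, out of 65975 gene identifiers in the expression table. They were chosen by name, as relatives of ETS1, and each of the 10 symbols has 1 entry in the table. RNA-seq was performed on the RD line (FN-RMS) and the Rh30 line (FP-RMS), established rhabdomyosarcoma (RMS) lines without (fusion-negative) and with (fusion-positive) a PAX3-FOXO1 fusion gene. Each line was stably transduced with a lentivirus for a Scrambled control shRNA (Scramble) or for 1 shRNA against the histone demethylase KDM3A (KDM3A-sh2), and was selected with 1 ug/ml puromycin. There are 3 libraries in each of the 4 groups, 12 in all. According to the study RD cells have an activating Ras mutation, and no Ras status is given for Rh30. RD cells were grown in DMEM and Rh30 cells in RPMI. Line, fusion status, Ras status and medium therefore cannot be told apart. No second KDM3A shRNA was sequenced, so an effect of KDM3A loss and an effect of this hairpin cannot be told apart. Whether replicates are separate cultures is not given in the sources used here, so p-values measure only the spread between these libraries, which may be technical.

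ETS proteins bind DNA at sites built around the bases GGAA. ETS1 and ETS2, the ternary complex factors ELK1, ELK3 and ELK4, and the PEA3 group of ETV1, ETV4 and ETV5 are known as nuclear targets of Ras/MAPK signaling, which phosphorylates many of them and drives transcription of the PEA3 genes. The ternary complex factors act beside the serum response factor SRF on immediate early genes, GABPA forms a complex with GABPB on mitochondrial and neuromuscular genes, and FLI1 is best known from blood and endothelium.

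Values are FPKM, fragments scaled to exon length and to mapped reads, and a log2 fold change is a difference of log2(FPKM + 1), which understates the change of low genes. A gene is called upregulated or downregulated where the Benjamini-Hochberg adjusted p of a two-sided limma test over all genes tested is under 0.05. Summed FPKM ran from 1198300 to 1379200 per library, and the number of genes with at least 1 FPKM ran from 17473 to 17983. The depth of each library, estimated from the steps between low values, was 0.868 to 1.19 times that of the median library, and the number of reads is not held by FPKM. KDM3A fell with KDM3A-sh2, from 35.8, 33.9 and 30.9 to 12.0, 11.2 and 13.4 FPKM in RD (replicates 1 to 3), and in Rh30 it went from 27.8, 29.2 and 32.0 to 13.7, 13.2 and 15.4, with log2 fold changes of -1.39 and -1.02. The muscle markers MYOD1, MYOG, DES and CHRNA1 were expressed in every group, with MYF5 at or near 0. Their summed level with MYF5 was 2055 to 2270 FPKM in RD Scramble, 2580 to 2703 in RD KDM3A-sh2, 2195 to 2424 in Rh30 Scramble and 2598 to 2625 in Rh30 KDM3A-sh2.

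In RD cells 4 of the 10 genes were upregulated with KDM3A-sh2 (ETV4, ETV5, ELF1 and GABPA), where 21.6% of the 18001 genes tested were. Another 4 were downregulated (ETS1, ETS2, ELK4 and FLI1), compared with 19.5% of all genes tested. The median log2 fold change of the 10 genes was -0.05, and that of all genes 0.01. In Rh30 cells 3 were upregulated (ETS2, ELK1 and GABPA) and 5 downregulated (ETS1, ELK3, ELK4, ETV4 and ETV5), against 15.3% and 13.2% of the 17811 genes tested. Their median log2 fold change was -0.18, and that of all genes 0.03. The calls of ELK1 and GABPA in Rh30 were the weakest of these, and they were lost in 12 and 11 of the 14 other ways in which this comparison was run. Of the 10 genes, 2 were downregulated in both lines (ETS1 and ELK4), 1 was upregulated in both (GABPA), 2 rose in RD and fell in Rh30 (ETV4 and ETV5), and 1 fell in RD and rose in Rh30 (ETS2). Over the 15985 genes tested in both lines, these shares were 6.85%, 6.52%, 2.00% and 1.58%.

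**Figure D1:**
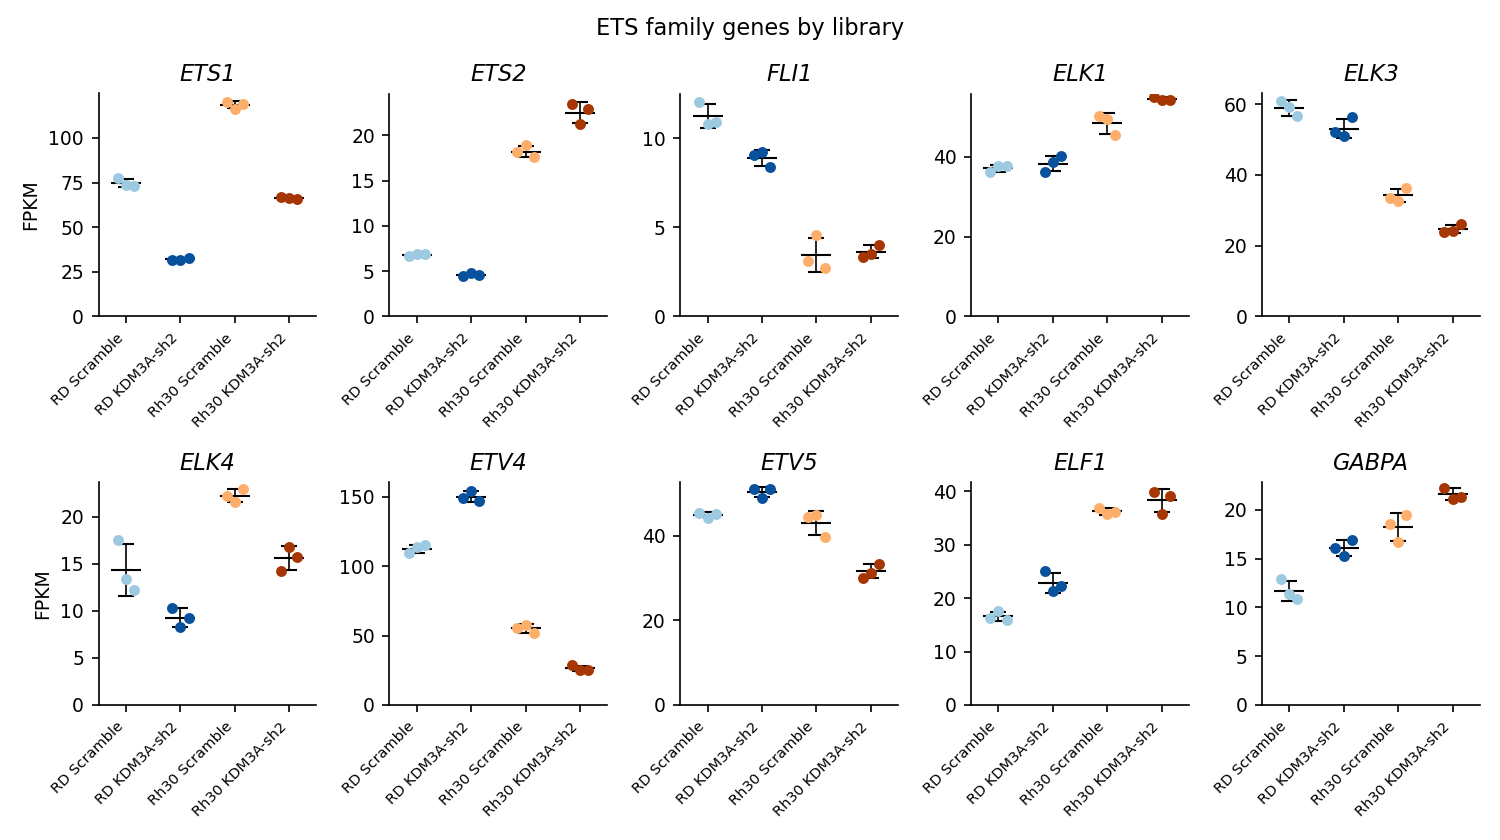
FPKM of the 10 ETS genes (vertical axes, each from 0) in the 4 groups; points are libraries, and black bars are the mean and the SD of 3 libraries. ETS1 falls in both lines (means of 74.8 and 31.9 FPKM in RD, 118.5 and 66.2 in Rh30), while ETV4 rises in RD (112.6 to 150.04) and falls in Rh30 (55.1 to 26.4).

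ETS1, the founding member of the family, lies on chromosome 11 of GRCh38 from 128458761 to 128587558 on the minus strand (gene models here are those of GENCODE 29). In RD cells it was at 77.5, 73.8 and 73.0 FPKM with Scramble and at 31.6, 31.5 and 32.6 FPKM with KDM3A-sh2. In Rh30 cells it was at 120.2, 116.4 and 119.0 FPKM with Scramble and at 66.7, 66.3 and 65.6 FPKM with KDM3A-sh2. The KDM3A-sh2 libraries lay well below the Scramble libraries in both lines, with no overlap, and the level left in Rh30 was close to the starting level in RD. The mean with KDM3A-sh2 was 0.427 of the Scramble mean in RD and 0.559 of it in Rh30. The log2 fold change was -1.20 in RD (standard error, SE, 0.04, 95% interval -1.30 to -1.10, adjusted p = 1.24e-05, limma) and -0.83 in Rh30 (SE 0.03, 95% interval -0.91 to -0.75, adjusted p = 5.42e-05). On the log2 scale the drop was larger in RD, by 0.37 (SE 0.05, adjusted p = 0.000197, interaction in limma), but in FPKM it was larger in Rh30, with a difference (Rh30 minus RD) of -9.44 FPKM (adjusted p = 0.00598, linear model on FPKM without logs). Which line had the larger drop therefore depends on the scale.

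ELK4 (also called SAP-1), a ternary complex factor on chromosome 1 from 205597556 to 205631962 (minus strand), was the other gene of the 10 that was downregulated in both lines. It was at 17.5, 13.4 and 12.2 FPKM in RD Scramble, at 10.3, 8.28 and 9.18 in RD KDM3A-sh2, at 22.1, 21.6 and 22.9 in Rh30 Scramble and at 14.2, 16.7 and 15.7 in Rh30 KDM3A-sh2. Scramble and KDM3A-sh2 did not overlap in either line, but the RD Scramble libraries spread widely, with replicate 1 above the other 2. The log2 fold change was -0.57 in RD (SE 0.14, adjusted p = 0.0149) and -0.49 in Rh30 (SE 0.07, adjusted p = 0.00353), and the lines were not found to differ (difference 0.08, 95% interval -0.28 to 0.45). In RD the call was lost in a linear model on FPKM without logs (adjusted p = 0.0926) and in an ordinary linear model per gene (adjusted p = 0.0683). ELK4 shares 422 exonic bases with MFSD4A on the opposite strand, and the strand setting used for counting was not given in the sources used here.

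The 3' UTRs of ETS1 and ELK4 share a 7-base word, TGAAGCA, which earlier results of these data had pointed to. The sites are shown because, of the 10 genes, the same pair was downregulated in both lines. The longest annotated 3' UTR of ETS1 has 3600 bases and holds the word at base 515 after the stop codon. That of ELK4 has 8603 bases and holds it at bases 2350 and 3954. The longest 3' UTRs of ETS2, FLI1, ELK1, ELK3, ETV4, ETV5, ELF1 and GABPA, of 675 to 3228 bases, do not hold it. The sites are printed in the sense of the transcript from GENCODE 29 (GRCh38, minus strand in each case), with the word in capitals and 10 bases on each side.
ETS1, chr11:128461830-128461856: actctagtttTGAAGCAaagatggact
ELK4, chr1:205614180-205614206: gaaactcagtTGAAGCAacttcctagt
ELK4, chr1:205612576-205612602: tcaatacctcTGAAGCAgtggttcaga
Long 3' UTRs hold more words of any kind. Among genes tested in both lines with a 3' UTR of 0.8 to 1.25 times the length, 31.1% of 1488 hold the word for the length of ETS1 and 56.6% of 297 for that of ELK4. Among all genes with an annotated 3' UTR, 16.7% of those tested in RD and 16.9% of those tested in Rh30 hold it. The word was picked because earlier results of these libraries pointed to it, so the shares that follow are a description and no independent evidence. In RD 30.4% of the genes with the word were downregulated and 19.3% upregulated, while without it these shares were 20.9% and 27.7%. In Rh30 they were 28.2% and 11.6% with the word and 13.8% and 18.8% without it. Genes with and without the word were not matched for 3' UTR length here, so word and length cannot be told apart in these shares. A match is a description of the sequence, and its part in the changes was not tested.

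**Figure D2:**
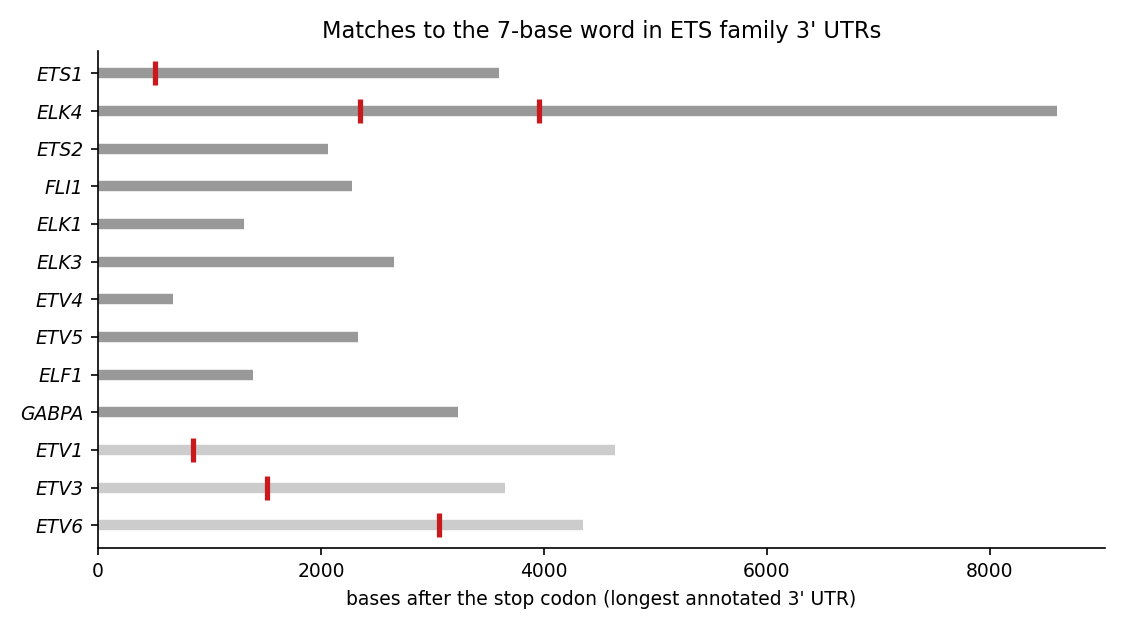
Longest annotated 3' UTRs of the 10 ETS genes (dark grey) and of 3 more ETS genes that hold the word (light grey), drawn to scale in bases after the stop codon; red marks are matches to the 7-base word. ETS1 has 1 match and ELK4 has 2, and the other 8 of the 10 genes have none. EHF, with means below 1 FPKM in every group, also holds the word and is not drawn.

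The genes whose pattern over the 12 libraries was most like that of ETS1, by Pearson correlation of log2(FPKM + 1) among the 11017 genes that average 10 FPKM or more, were HNRNPA0 (r = 0.998), IGF2BP1 (0.995), TRIM44 (0.992), HDAC2 (0.992) and BAHD1 (0.992). The 12 libraries share 4 group levels, so high values are common, and the correlations are given as a description. HNRNPA0, an RNA-binding protein of the hnRNP family, had mean levels of 47.4 and 20.4 FPKM in RD and 77.9 and 41.7 FPKM in Rh30 (Scramble and KDM3A-sh2). TRIM44 had 44.4 and 20.3 FPKM in RD and 73.2 and 40.7 FPKM in Rh30. Each of the 5 genes fell in both lines, and all 5 hold the 7-base word in their longest 3' UTR, which has 2112 to 11622 bases. BAHD1 has the shortest of these, and 18.5% of genes with a 3' UTR of like length hold the word. For the longer 3' UTRs of IGF2BP1, HNRNPA0, HDAC2 and TRIM44 this share was 46.2%, 51.4%, 53.8% and 72.2%. The 5 genes were picked for their likeness to ETS1 over these libraries, which largely fixes their falls in advance. The word was picked from earlier results of the same libraries, so the matches are no independent evidence for it.

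ETV4 and ETV5, the PEA3 genes of the 10, moved in opposite directions in the 2 lines. ETV4 (chromosome 17, 43527844 to 43579620, minus strand) was at 109.4, 113.5 and 115.04 FPKM in RD Scramble and at 149.3, 154.2 and 146.6 in RD KDM3A-sh2. Rh30 cells had it at 55.6, 57.9 and 51.9 FPKM with Scramble and at 28.5, 25.2 and 25.5 FPKM with KDM3A-sh2. The groups did not overlap in either line, and the knockdown widened the gap between the lines from both sides. The log2 fold change of ETV4 was 0.41 in RD (SE 0.04, adjusted p = 0.000237) and -1.03 in Rh30 (SE 0.07, adjusted p = 0.000197), a difference of -1.45 (SE 0.08, adjusted p = 6.77e-07, interaction in limma).

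ETV5 (chromosome 3, 186046308 to 186110318, minus strand) was at 45.5, 44.3 and 45.2 FPKM in RD Scramble and at 51.1, 48.9 and 51.1 in RD KDM3A-sh2. The Rh30 libraries had 44.5, 44.8 and 39.8 FPKM with Scramble and 30.1, 31.3 and 33.4 FPKM with KDM3A-sh2. Both lines started from about the same level and ended apart. The rise in RD was small, with a log2 fold change of 0.16 (SE 0.04, adjusted p = 0.0165), and it was not called without RD Scramble replicate 2 (adjusted p = 0.0581) or without RD KDM3A-sh2 replicate 1 (adjusted p = 0.0583). The fall in Rh30 was -0.43 (SE 0.07, adjusted p = 0.00434), and the difference between the lines was -0.59 (SE 0.08, adjusted p = 0.000217). ETV5 shares 164 exonic bases with DGKG on the same strand, and reads there cannot be assigned to either gene.

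ETS2, the closest relative of ETS1, showed the reverse pattern. It lies on chromosome 21 from 38805307 to 38824955 (plus strand) and was the lowest of the 10 genes in RD, with 6.70, 6.85 and 6.87 FPKM in Scramble and 4.48, 4.75 and 4.59 in KDM3A-sh2. Rh30 cells had it at 18.2, 18.9 and 17.6 FPKM with Scramble and at 23.4, 21.2 and 22.9 FPKM with KDM3A-sh2. Groups did not overlap in either line. The log2 fold change was -0.48 in RD (SE 0.07, adjusted p = 0.00219) and 0.29 in Rh30 (SE 0.06, adjusted p = 0.0125), and these differed by 0.77 (SE 0.08, adjusted p = 4.15e-05).

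**Figure D3:**
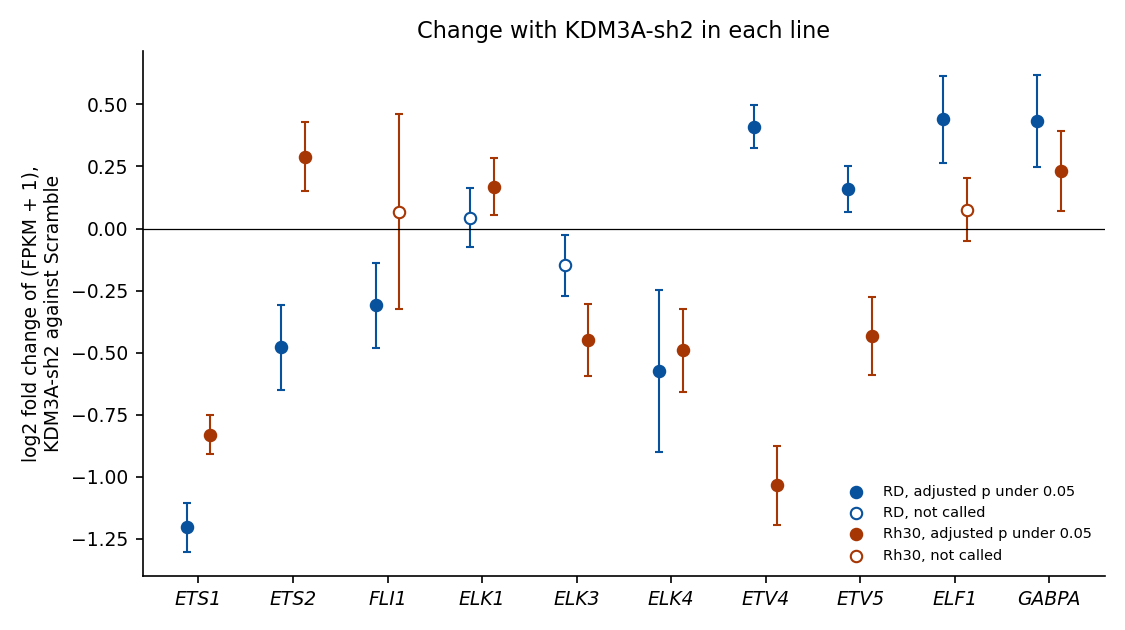
Log2 fold change of FPKM + 1 with KDM3A-sh2 against Scramble (vertical axis) for the 10 ETS genes in RD (blue) and Rh30 (brown); bars are 95% intervals, filled points have an adjusted p under 0.05. ETV4 and ETV5 lie above 0 in RD and below 0 in Rh30, ETS2 lies the other way round, and ETS1 and ELK4 lie below 0 in both.

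The remaining ternary complex factors, ELK1 and ELK3, changed little in RD. ELK3 (also called Net, a repressor that turns into an activator on phosphorylation; chromosome 12, 96194382 to 96269835, plus strand) was at 61.0, 59.2 and 56.6 FPKM in RD Scramble and at 52.0, 51.1 and 56.3 in RD KDM3A-sh2. Rh30 cells had it at 33.4, 32.8 and 36.4 FPKM with Scramble and at 24.0, 24.2 and 26.1 FPKM with KDM3A-sh2. It fell in Rh30 (log2 fold change -0.45, SE 0.06, adjusted p = 0.0028). In RD the value was -0.15 (95% interval -0.27 to -0.02, adjusted p = 0.0592), which became a call in 3 alternatives, with a filter of 10 FPKM (adjusted p = 0.0452), with median-of-ratios scaling (adjusted p = 0.0371) and without RD KDM3A-sh2 replicate 3 (-0.19, adjusted p = 0.0295). The difference between the lines was -0.30 (SE 0.08, adjusted p = 0.0167), and it was not found in a linear model on FPKM without logs (adjusted p = 0.313). ELK1, an SRF partner on chromosome X (47635521 to 47650604, minus strand), was at 36.2 to 37.6 FPKM in RD Scramble and 36.3 to 40.1 in RD KDM3A-sh2, which overlap (log2 fold change 0.04, 95% interval -0.08 to 0.16). In Rh30 it was at 45.5 to 50.2 FPKM with Scramble and 54.2 to 54.9 with KDM3A-sh2, a log2 fold change of 0.17 (SE 0.05, adjusted p = 0.0408), whose adjusted p ran up to 0.115 with single libraries left out.

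GABPA (chromosome 21, 25734570 to 25772460, plus strand), the DNA-binding subunit of the GA-binding protein, was at 12.9, 11.4 and 10.8 FPKM in RD Scramble and at 16.1, 15.3 and 16.9 in RD KDM3A-sh2. For Rh30 the values were 18.6, 16.7 and 19.5 FPKM with Scramble and 22.3, 21.1 and 21.3 FPKM with KDM3A-sh2. Each group with KDM3A-sh2 lay above its Scramble group. The log2 fold change was 0.43 in RD (SE 0.08, adjusted p = 0.00481) and 0.23 in Rh30 (SE 0.07, adjusted p = 0.043), where the adjusted p ran from 0.0352 to 0.126 with single libraries left out. The difference between lines was -0.20 (95% interval -0.43 to 0.03). GABPA shares 413 exonic bases with ATP5PF on the opposite strand.

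ELF1, an ETS factor of lymphoid and many other cells (chromosome 13, 40932028 to 41061440, minus strand), rose in RD from 16.2, 17.6 and 15.9 to 25.02, 21.3 and 22.3 FPKM. The log2 fold change was 0.44 (SE 0.07, adjusted p = 0.00342). In Rh30, where it started higher, Scramble (35.7 to 37.0 FPKM) and KDM3A-sh2 (35.8 to 40.0 FPKM) overlapped and the log2 fold change was 0.08 (95% interval -0.05 to 0.20). The difference between lines was -0.37 (SE 0.09, adjusted p = 0.0128), and it was not called in a linear model on FPKM without logs (adjusted p = 0.114).

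FLI1 (chromosome 11, 128686535 to 128813267, plus strand), the neighbour of ETS1 on its chromosome, fell in RD from 12.03, 10.8 and 10.9 to 9.05, 9.23 and 8.39 FPKM, with a log2 fold change of -0.31 (SE 0.07, adjusted p = 0.0136). In Rh30 it was the lowest of the 10 genes, and Scramble (2.73 to 4.55 FPKM) overlapped with KDM3A-sh2 (3.31 to 4.02 FPKM). Its log2 fold change there was 0.07 (95% interval -0.33 to 0.46), and it changed sign without Rh30 Scramble replicate 3 (-0.05). The difference between lines, 0.38, was not called (adjusted p = 0.155), and it was called without Rh30 Scramble replicate 2 (0.54, adjusted p = 0.00978). Of 5 endothelial markers, PECAM1, CDH5, VWF and EMCN had means below 1 FPKM in every group, and TIE1 fell in RD (means of 18.5 and 9.26 FPKM) and in Rh30 (1.86 and 0.88), where the call was lost in 9 of 13 alternatives. Of 5 blood markers, PTPRC, CD53, LCP2 and SPI1 had means below 1 FPKM in every group, and CD34 rose from 6.92 to 15.7 FPKM in RD and was at 1.78 and 1.61 in Rh30. Of 5 epithelial markers EPCAM alone reached 1 FPKM in a group (4.63 and 6.03 in Rh30). The summed endothelial level was 18.4 to 19.3 FPKM in RD Scramble, 8.69 to 11.4 in RD KDM3A-sh2, 2.89 to 4.24 in Rh30 Scramble and 1.75 to 2.52 in Rh30 KDM3A-sh2, and their part in the results was not tested. An exact permutation test of single genes, 3 libraries against 3, cannot go below 0.1 (two-sided), and it gave 0.1 for each of the 16 calls above.

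The interaction of shRNA and line, over all 12 libraries, asks whether the change differed between the lines. It was positive (a higher value in Rh30) for 2 of the 10 genes, ETS1 and ETS2, where 14.4% of the 18532 genes tested were, and negative for 4, ELK3, ETV4, ETV5 and ELF1, where 13.5% of genes were. With FPKM rescaled to the same sum in each library, the split over all genes moved from 2669 positive and 2493 negative to 2081 and 3029. The 6 calls of these genes were the same under that rescaling. This test uses the same libraries as the comparisons within the lines.

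Without knockdown, Rh30 and RD expressed the same 10 genes in a different order. The comparison of Rh30 Scramble with RD Scramble uses the control libraries of the comparisons above. In it 6 of the 10 genes were higher in Rh30 (ETS1, ETS2, ELK1, ELK4, ELF1 and GABPA), against 34.9% of 18367 genes tested, and 3 were lower (ELK3, ETV4 and FLI1), against 39.6%. The largest differences were those of FLI1 (log2 fold change -1.48, SE 0.15, adjusted p = 9.45e-05), ETS2 (1.30, SE 0.06, adjusted p = 1.45e-06), ELF1 (1.08, SE 0.06, adjusted p = 2.37e-06) and ETV4 (-1.02, SE 0.05, adjusted p = 2.14e-06). ETS1 was higher in Rh30 by 0.66 (SE 0.04, adjusted p = 5.37e-06). ETV5 was not called (-0.06, 95% interval -0.20 to 0.07), but it was lower in Rh30 after rescaling to the same sum (-0.17, adjusted p = 0.0294), which moves the median of all genes from -0.04 to -0.14.

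FPKM are scaled to length, so levels can also be ranked within a group. In RD Scramble ETV4 led with 112.6 FPKM, followed by ETS1 (74.8), ELK3 (58.9), ETV5 (44.99) and ELK1 (37.1), each above the next by more than the range of the libraries. ELF1, ELK4, GABPA and FLI1 followed between 16.6 and 11.3 FPKM, with ranges that met from each gene to the next, and ETS2 was last. With KDM3A-sh2, ETS1 moved from the second to the fifth place in RD and GABPA passed ELK4. In Rh30 Scramble ETS1 led with 118.5 FPKM, ahead of ETV4 (55.1), ELK1 (48.4), ETV5 (43.0) and ELF1 (36.3), whose range met that of ELK3 (34.2). The order went on with ELK4 (22.2), GABPA (18.2), ETS2 (18.2) and FLI1 (3.46), and the ranges of GABPA and ETS2 met. With KDM3A-sh2 ETS1 still led in Rh30 (66.2 FPKM), and ETV4 fell from the second to the fifth place, level with ELK3.

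A further 18 genes of the ETS family were listed beside the 10. ERG, FEV, ETV3L, ETV7, ELF3, ELF5, EHF, SPI1, SPIC and SPDEF had means below 1 FPKM in every group. ETV1, the remaining PEA3 gene, was at a mean of 139.8 and 119.2 FPKM in RD and 47.6 and 33.8 FPKM in Rh30 (Scramble and KDM3A-sh2), which places it above every one of the 10 genes in RD Scramble. Unlike ETV4 and ETV5 it fell in both lines, by 0.23 (adjusted p = 0.0333) and 0.49 (adjusted p = 0.00975) on the log2 scale, although the call in RD was lost in 9 of 14 alternatives. ELF2 fell in both lines too (-0.26 and -0.17, adjusted p = 0.0168 and 0.0205, the latter lost in 6 of 14 alternatives), and so did ETV3, a repressor, in RD (-0.33, adjusted p = 0.00201; Rh30 -0.22, adjusted p = 0.0631). In Rh30 ETV2 rose from 4.11 to 8.86 FPKM (0.97, adjusted p = 0.0185) and SPIB fell from 4.46 to 2.14 (-0.78, adjusted p = 0.0224), each lost in 7 alternatives. Values for ETV6 were -0.00 and -0.45, for ELF4 0.02 and -0.14 and for ERF, a repressor controlled by MAPK, -0.15 and 0.10 in RD and Rh30, and none of these was called. Thus 0 of 7 tested rose and 3 fell in RD by limma (0 rose also at an unadjusted p under 0.05 and in both other linear models), and 1 and 3 of 8 in Rh30, with median log2 fold changes of -0.15 and -0.19. Over all genes 21.6% rose and 19.5% fell in RD, and 15.3% and 13.2% in Rh30. The 7-base word is in the longest 3' UTR of ETV1 (base 853 of 4638), of ETV3 (base 1516 of 3650) and of ETV6 (base 3056 of 4356), and not in those of ELF2, ELF4, ERF, ETV2 or SPIB. Among the genes below 1 FPKM in every group, EHF holds it too (base 1151 of 2126).

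The summed level of all 28 ETS genes was 661 to 691 FPKM in RD Scramble, 626 to 649.7 in RD KDM3A-sh2, 567 to 577 in Rh30 Scramble and 444 to 477 in Rh30 KDM3A-sh2. It was lower with KDM3A-sh2 in each line, without overlap. The sum of the 10 genes alone was 384.2 to 394.9 FPKM in RD Scramble and 383.1 to 388.2 in RD KDM3A-sh2, which overlap, and it was 391.4 to 402.9 in Rh30 Scramble and 299.6 to 308.04 in Rh30 KDM3A-sh2, which do not. ETS1 was 11.03% ± 0.20 of the sum in RD Scramble and 5.00% ± 0.05 in RD KDM3A-sh2, and 20.7% ± 0.42 and 14.3% ± 0.60 in Rh30 (SD, n = 3 each). ETV4 grew in RD from 16.6% ± 0.80 to 23.5% ± 1.03, and in Rh30 it shrank from 9.61% ± 0.44 to 5.68% ± 0.30. These shares are relative to one another and are given as a description.

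**Figure D4:**
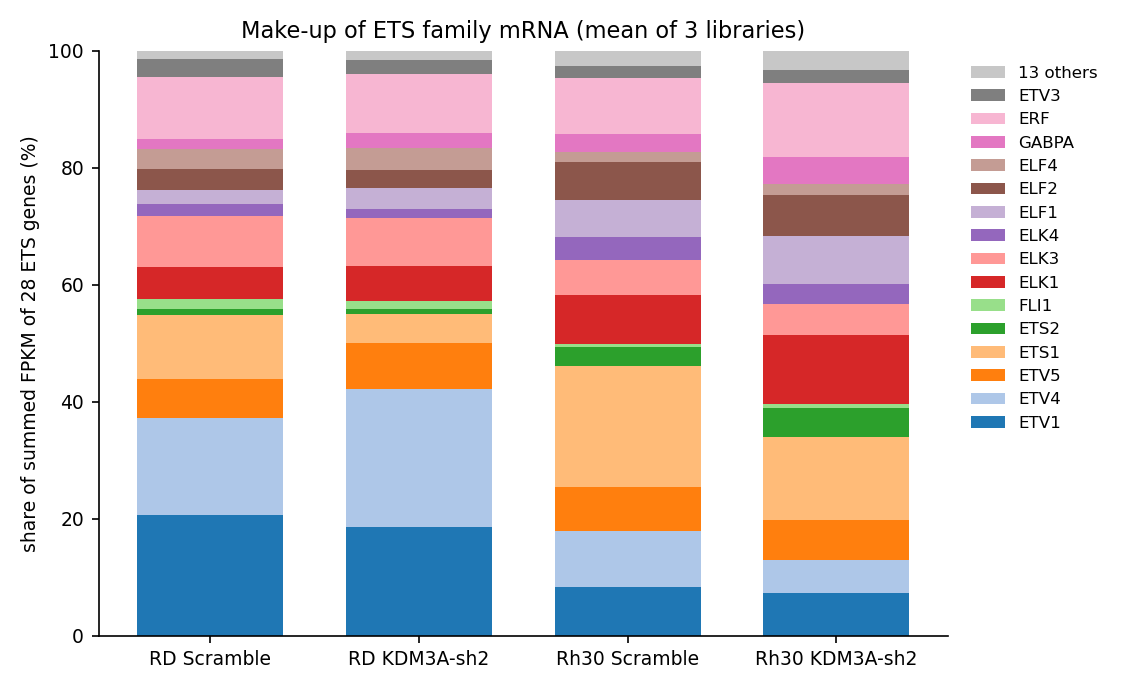
Share of each ETS gene in the summed FPKM of 28 ETS genes (vertical axis, percent; mean of 3 libraries) in the 4 groups, with 13 genes of small share joined as others. ETS1 shrinks in both lines (11.03% to 5.00% in RD, 20.7% to 14.3% in Rh30), while ETV4 grows from 16.6% to 23.5% in RD and shrinks from 9.61% to 5.68% in Rh30.

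The genes of the pathway were examined next, from lists of known function. These lists and those that follow were chosen with earlier results of these data known. Their counts and medians are therefore a description and no independent evidence. Among 9 genes for Ras proteins and the kinases below them, 3 rose and 2 fell in RD, and 1 rose and 1 fell in Rh30, with median log2 fold changes of 0.06 and 0.05. Over all genes tested the shares called higher and lower were 21.6% and 19.5% in RD and 15.3% and 13.2% in Rh30, so the numbers that fell in RD and that moved either way in Rh30 are near the background. MAPK3, which encodes ERK1, rose in both lines (0.49 and 0.19, adjusted p = 0.000739 and 0.0259), the Rh30 call being lost in 7 of 14 alternatives. MAP2K1, which encodes MEK1, fell from a mean of 78.1 to 49.2 FPKM in Rh30 (-0.66, adjusted p = 0.000195). It also fell in RD, from a mean of 288.6 to 253.1 FPKM (-0.19, adjusted p = 0.00548). HRAS fell in RD (-0.30, adjusted p = 0.00696), and MAP2K2, which encodes MEK2, rose there (0.21, adjusted p = 0.00477).

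Genes known as outputs and feedback inhibitors of MAPK signaling, among which the PEA3 genes are often counted, were called in both directions in RD and mostly lower in Rh30. Of 14 such genes 7 rose and 3 fell in RD (21.6% and 19.5% of all genes), while in Rh30 0 rose and 12 fell by limma (15.3% and 13.2% of all genes). At an unadjusted p under 0.05 the number that rose in Rh30 was 1, and it was 0 in a linear model with or without logs. The median log2 fold change was 0.13 in RD and -0.59 in Rh30, against 0.01 and 0.03 over all genes tested. SPRY4, a Sprouty inhibitor of receptor signaling, was at 54.3, 57.04 and 57.5 FPKM in RD Scramble and at 91.3, 89.0 and 87.8 in RD KDM3A-sh2. Rh30 cells had it at 25.6, 26.0 and 23.7 FPKM with Scramble and at 13.4, 12.4 and 14.3 FPKM with KDM3A-sh2. Like ETV4 it rose in RD and fell in Rh30 without overlap of groups, and its log2 fold changes were 0.66 (adjusted p = 5.08e-05) and -0.86 (adjusted p = 0.000395). SPRED3, a relative of the Sprouty proteins, rose from a mean of 29.3 to 39.2 FPKM in RD and fell from 3.73 to 0.71 in Rh30 (0.41 and -1.46, adjusted p = 0.000362 and 0.00117). In all, 6 of the 14 genes rose in RD and fell in Rh30, compared with 2.00% of genes tested in both lines, the other 4 being SPRY2, PHLDA1, EPHA2 and IER3, which are named here after their values were seen. DUSP6, the phosphatase of ERK, and CCND1, which encodes cyclin D1, fell in Rh30 (-0.91 and -1.29, adjusted p = 0.000288 and 5.42e-05), and their values in RD were 0.01 and -0.08 (not called). DUSP5 fell in both lines (-0.47 and -0.62), and EPHA4 rose in RD (0.69, adjusted p = 0.00211). The interaction was called negative for 10 of the 14 genes and positive for 0 of them by limma (0 at an unadjusted p under 0.05, 2 on FPKM without logs). Over all genes tested these shares were 13.5% and 14.4%. In the Scramble libraries 11 of the 14 genes were lower in Rh30 than in RD and 1 was higher, compared with 39.6% and 34.9% of all genes tested. RD cells have an activating Ras mutation, and its part in these differences was not tested. IER3, and also DAXX and HRAS, has further entries in the table under other identifiers, so its level is uncertain.

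**Figure D5:**
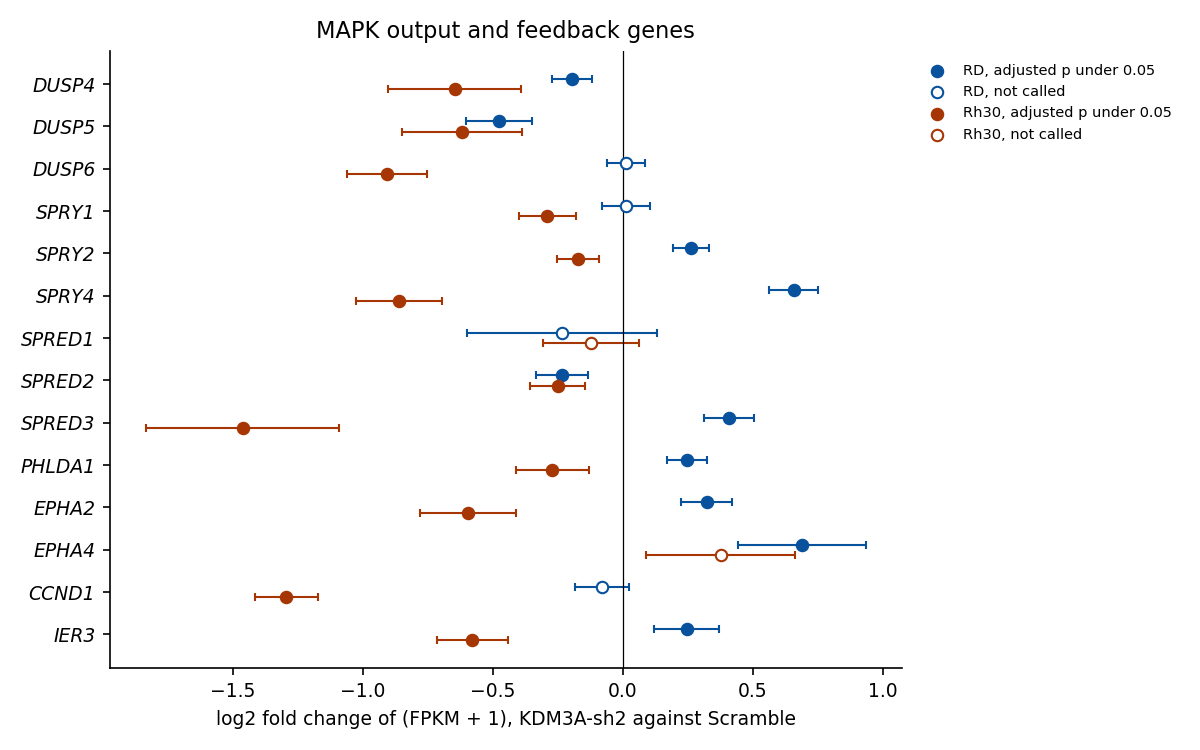
Log2 fold change of FPKM + 1 with KDM3A-sh2 against Scramble (horizontal axis) for 14 MAPK output and feedback genes in RD (blue) and Rh30 (brown); bars are 95% intervals, filled points have an adjusted p under 0.05. In Rh30 12 of the 14 genes are called below 0, whereas in RD 7 are called above 0 and 3 below.

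Immediate early genes, which ternary complex factors control together with SRF, fell or were not called. Of 9 such genes 7 were tested in each line, and 5 fell in RD, where 19.5% of all genes did, and 4 in Rh30, where 13.2% did. Upregulated genes were 0 in either line by limma, also at an unadjusted p under 0.05 and in linear models with or without logs, and the median log2 fold changes were -0.44 and -0.34. Over all genes tested 21.6% were upregulated in RD and 15.3% in Rh30, so with 7 genes the lack of upregulated ones is near the background. FOSL1 fell in both lines (-0.45 and -1.26, adjusted p = 0.00196 and 0.000405), with means of 134.5 and 98.1 FPKM in RD and of 10.9 and 3.97 in Rh30. FOS and JUNB fell in RD (-1.01 and -0.56, adjusted p = 0.000295 and 0.000305), and MCL1 (-0.45, adjusted p = 0.000323) and EGR1 (-0.35, adjusted p = 0.0486, lost in 8 of 13 alternatives) fell in Rh30. MCL1 and EGR1 were called lower in RD too, and kept that call in 14 of 14 and 13 of 13 alternatives. JUNB was also called lower in Rh30, a call lost in 9 of 14 alternatives. Of 16 partners and repressors of ETS factors, SRF and GABPB1 among them, 15 were tested, with 2 upregulated and 3 downregulated in RD, no more than the 21.6% and about the 19.5% of all genes. In Rh30 1 was downregulated and 0 upregulated by limma, also at an unadjusted p under 0.05 and in the linear models with or without logs. Over all genes tested in Rh30 13.2% were downregulated and 15.3% upregulated, and with 15 genes these counts are not far from those shares. DAXX, which binds ETS1 and represses transcription, fell in both lines (-0.64 and -0.42, adjusted p = 0.000178 and 0.000801), from 102.2, 108.05 and 102.7 to 66.1, 70.8 and 62.5 FPKM in RD. CIC, the repressor of PEA3 genes, rose in RD (0.29, adjusted p = 0.0125), and RFWD2, which encodes the ubiquitin ligase COP1 that marks PEA3 proteins for degradation, fell in RD (-0.29, adjusted p = 0.00955). In Rh30 their values were 0.08 and -0.07 (not called).

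Of 15 genes known as ETS1 targets in other cell types, 11 were tested in RD, with 2 called higher and 5 lower, and 8 in Rh30, with 0 called higher by limma (0 at an unadjusted p under 0.05, 1 in linear models with or without logs) and 6 lower. The medians were -0.10 and -0.75. Over all genes 21.6% were called higher and 19.5% lower in RD, and 15.3% and 13.2% in Rh30, so the number higher in RD was near the background. MCAM, a cell adhesion molecule, is part of this list since the study places it under Ets1 control in RMS cells. Its mean was 73.2 and 50.7 FPKM in RD and 101.4 and 41.9 FPKM in Rh30 (Scramble and KDM3A-sh2). On the log2 scale it fell more in Rh30 (-0.52 in RD and -1.26 in Rh30, difference -0.74, adjusted p = 3.06e-05, interaction in limma). ITGB3 fell more in Rh30 as well (-1.10 against -0.16). The drop of ETS1 was larger in RD on the log2 scale and larger in Rh30 in FPKM. The study reported lower MCAM protein after Ets1 depletion in both subtypes, and Ets1 at the MCAM locus in another FP-RMS line. The part of ETS1 in these drops was not tested here. MMP1 fell from 1.93 to 0.08 FPKM in Rh30 (-1.42, adjusted p = 0.00428) and MMP9 from 1.92 to 0.18 FPKM in RD (-1.29, adjusted p = 0.00111). TIE1 fell in RD (-0.94, adjusted p = 0.000615) and ANGPT2 rose there (0.60, adjusted p = 0.00979). MCAM and ETS1 were part of a set that the study picked on these libraries, and it named PLAU, also on this list, from them too. Their falls, and the counts and medians of a list that holds MCAM and PLAU, are not independent evidence of a direction.

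Of 8 genes known as targets of GABP, 7 were tested in each line, with 4 upregulated and 1 downregulated in RD and 1 upregulated and 2 downregulated in Rh30 (medians 0.18 and -0.08). The shares over all genes were 21.6% and 19.5% in RD and 15.3% and 13.2% in Rh30, and with 7 genes the single calls in either line are near them. CHRND, a subunit of the acetylcholine receptor, rose in RD from 99.4, 108.7 and 107.2 to 154.6, 147.9 and 147.7 FPKM and fell in Rh30 from 98.3, 103.3 and 96.7 to 61.4, 61.9 and 60.6 FPKM. It started at about the same level in both lines and moved apart. Its log2 fold changes were 0.51 and -0.69 (adjusted p = 0.000224 and 0.000139, limma). The mitochondrial factor TFB1M also rose in RD and fell in Rh30 (0.30 and -0.33, adjusted p = 0.00261 and 0.024, the latter lost in 6 of 14 alternatives). The part of GABPA in the changes of these genes was not tested. COX5B, a subunit of cytochrome oxidase, rose in Rh30 (0.25, adjusted p = 0.00491), and UTRN, which encodes utrophin, rose in RD (0.31, adjusted p = 0.0177, lost in 6 of 14 alternatives). COX5B was called higher in RD too, and kept that call in 14 of 14 alternatives (0.16 to 0.21). TFAM, also on this list, went the other way in RD, from 48.8, 48.0 and 44.4 FPKM with Scramble to 39.3, 38.8 and 40.0 with KDM3A-sh2. CHRNA1, the subunit counted here among the muscle markers, rose in RD and fell in Rh30 too (0.42 and -0.64).

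Promoter sequences of RefSeq (GRCh38.p14, from 250 bases before to 50 after the start) were matched for 6 of the 10 genes, ETS2, ELK1, ELK3, ELK4, ELF1 and GABPA. The others are ETS1, ETV4, ETV5 and FLI1. They were searched for CCGGAAGT, a strong ETS site, on both strands, and the word stands in the promoters of ELK4 and GABPA and in 4.14% of all 35116 promoter entries. The 2 stretches are shown because they place an ETS site at the start of 2 ETS genes that went in opposite directions. Each is printed along the strand of the gene with the word in capitals, and in GABPA the word is on the other strand.
ELK4, chr1:205632015-205632044, minus strand: cagcccctcccCCGGAAGTgacgtgtagcg
GABPA, chr21:25734894-25734923, plus strand: acctccgctctACTTCCGGccctggctccg
ELK4 fell and GABPA rose with KDM3A-sh2 in both lines, with the values given above. No binding was measured here.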

How the data were processed

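RNA-seq libraries of RD and Rh30 cells (12, 3 per group) were taken as the authors deposited them, as FPKM. The authors aligned reads to GRCh38 with GSNAP and computed FPKM with Cufflinks. The Methods and the labels differ in read length. The table lists 66095 rows for 65975 identifiers, and 120 repeats were left out, as was the value 999999999 (17 genes, no ETS gene). Groups came from the sample labels. All tests were two-sided, by limma 3.58.1 (trend) in R 4.3.3 on log2(FPKM + 1). Genes averaging under 1 FPKM in the libraries compared were left out, and p-values were adjusted over all genes tested, instead of the ANOVA of the study, which was run as an alternative. The script was tested on simulated data. Further alternatives were another pseudocount, filter or scaling, an ordinary linear model, a replicate block and each library left out. The 10 genes, the lists and the 7-base word were chosen with earlier results of these data known. All 10 genes were named, and of each list at most the 3 largest calls in each line, apart from further genes given to show the other line or direction. ETS family genes were named from 1 FPKM. Symbols with several rows were read from the GENCODE 29 identifier. Python 3.11.15 and matplotlib 3.10.9 were used. One item of a list is not reported here.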

Additional observations from a re-analysis of the deposited data

Results flagged for a closer look

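The change with KDM3A-sh2 differed between the lines (interaction in limma over 12 libraries, value in Rh30 minus value in RD on the log2 scale, adjusted p under 0.05) for 6 of the 10 ETS genes, namely ETS1 (0.37), ETS2 (0.77), ELK3 (-0.30), ETV4 (-1.45), ETV5 (-0.59) and ELF1 (-0.37). Over all genes tested it was called positive for 14.4% and negative for 13.5%. The difference was called for KDM3A itself (0.37, adjusted p = 0.0387), and it was lost for KDM3A in 13 of 20 alternatives. Among the genes named below it was lost in 10 of 20 for DAXX and DES, in 10 of 19 for ANGPT2 and in 9 of 20 for UTRN. It was called for 10 of the 14 outputs of the MAPK pathway, among them SPRY4 (-1.52), SPRED3 (-1.87), CCND1 (-1.21) and DUSP6 (-0.92). SPRY2, PHLDA1, EPHA2 and IER3 were also among these outputs. Among the kinases it was called for MAP2K1 (-0.47) and MAPK3 (-0.31). Among immediate early genes it was called for FOSL1 (-0.81) and FOS (0.67), and among ETS partners for RUNX1 (0.29) and DAXX (0.23). Among targets of ETS1 in other cells it was called for MCAM (-0.74), MMP1 (-1.54), ITGB3 (-0.94), TGFBR2 (-0.87), PLAU (-0.65) and ANGPT2 (-0.54), and among targets of GABP for CHRND (-1.20), TFB1M (-0.63) and UTRN (-0.50). Of the markers, it was called for CHRNA1 (-1.06), DES (-0.35), MYOD1 (0.52), MYOG (0.70) and CD34 (-1.16). Groups of 3 libraries were not searched for single libraries far from the others.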

How the results depend on the processing

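Over the 10 ETS genes and the 4 comparisons, 579 of the alternative values kept direction and call, 29 lost the call, 6 gained it and 4 changed sign. The number of ETS genes upregulated in Rh30 was 3, and it was 1 with no filter on low values, with FPKM rescaled to the same sum, with median-of-ratios scaling, in an ANOVA on FPKM without logs, in a linear model per gene and with the replicate block, and it ran from 1 to 2 when each library was left out in turn. The other 7 counts of ETS genes stayed within 1.5 times their value. On FPKM without logs the differences between lines changed sign for ETS1 (-9.44 FPKM), ELK4 (-1.54 FPKM, not called), FOSL1 (29.5 FPKM) and MAP2K1 (6.62 FPKM), a consequence of the scale where starting levels differ. With single libraries left out, the value of FLI1 in Rh30 ran from -0.051 to 0.24 and the difference between lines of ELK4 from -0.057 to 0.18. Some counts over all MAPK output genes changed as well. The number upregulated in Rh30 was 0 to 1 with single libraries left out (1 without Rh30 Scramble replicate 2). The number with a positive difference between lines was 2 on FPKM without logs. The number higher in Rh30 Scramble than in RD Scramble was 1 to 2 (2 without RD Scramble replicate 1). The cause of the other changes was not tested. Replicate numbers did not pair the samples, since the deviations of same-numbered libraries correlated between -0.07 and -0.01. With the replicate block, the calls of ELK1 and GABPA in Rh30 were lost (adjusted p = 0.0824 and 0.0733), and no other call of the 10 genes changed. ETS2 in RD and FLI1 in Rh30 could not be tested with a filter of 10 FPKM. FPKM do not hold the reads per gene, so no counting interval is given.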
